A study of Homo sapiens with 24 samples.

Results

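MRC5 fibroblasts, an established human fetal lung fibroblast line, were exposed to hydrogen peroxide at 0.2 mM for 2 h, a treatment called oxidative stress (OS) here, and their RNA was separated by the number of ribosomes it carried. The comparison described below sets the high-translated pool of these cells (gradient fractions 15 to 23) against their low-translated pool (fractions 10 to 14). Its 6 arrays, 3 for each pool, were taken by their labels (high pool M0460, M0466 and M0472, low pool M0459, M0465 and M0471) out of the 24 arrays of the series, which hold total RNA, untranslated RNA (fractions 1 to 9), low-translated and high-translated RNA of untreated (control) and OS cells, with 3 arrays in each of the 8 groups. Ribosomes were held on their messages with cycloheximide before lysis in every pool, control cells included, and per the study's methods fractions in the low pool held messages with few ribosomes and those in the high pool messages with many. Each array carried custom probes for lncRNAs (long transcripts annotated as non-coding) and catalog probes for mRNAs and some non-coding genes, called the lncRNA and the mRNA category below.

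An mRNA in translation carries several ribosomes at once, and such polysomes sediment faster in a sucrose gradient the more ribosomes they hold. The number of ribosomes on a message rises with the rate of initiation and with the length of the coding sequence, so that very short reading frames fill the light polysomes even when they are translated well. Oxidative stress is known to slow initiation through phosphorylation of eIF2α, while some stress messages with short upstream reading frames stay on ribosomes, and signalling through mTOR is known to control messages that begin with a run of pyrimidines. Equal amounts of labelled RNA from each pool went on the arrays, so a difference between the pools is one of relative share within a pool, and fewer cells and less RNA per cell cannot be told apart.

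One of the 6 arrays stood apart. The median processed signal of low-pool replicate 3 (M0471) was 679.5, against 39.2 and 29.3 on the other 2 low-pool arrays, 17.2, 18.2 and 11.4 on the high-pool arrays, and 7.65 to 47.9 over the rest of the series. On M0471 93.3% of lncRNA probes and 95.4% of mRNA probes were well above background, against 14.5% to 36.3% and 43.6% to 67.8% over the other 23 arrays. After normalization its mRNA signals correlated with those of the other low-pool arrays at Pearson's r of 0.893 and 0.891 across probes, while these 2 correlated at 0.993. Each result is therefore given from a fit of the 23 arrays without M0471 and from a fit of all 24, and values on single arrays come from the 24-array normalization. Of the 12 fibroblast markers looked for, COL1A1, COL3A1, LUM and THY1 had catalog probes, and all 4 were above background with signals of 9.75 to 17.2. Of the 4 endothelial markers present (CDH5, CLDN5, KDR, VWF) 0 were above background (3.28 to 6.41), the leukocyte gene PTPRC had 1 of 3 probes above it (3.63 to 6.35), and 3 of 5 epithelial markers (CLDN4, MUC1, SFTPC) were above it, with the list spanning 3.31 to 10.6. The part of those markers in the results was not tested.

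Messages of OS cells were spread widely between the pools. Without M0471, 3171 of 10935 mRNA-category probes tested were higher in the high pool (29%) and 2867 were lower (26.2%), by limma with a Benjamini-Hochberg adjusted p under 0.05. With all 24 arrays the counts were 3453 (31.7%) and 2314 (21.2%) of 10904. For lncRNA probes, 2394 of 12588 were higher (19%) and 3404 lower (27%) without M0471, whereas 3079 of 12470 were higher (24.7%) and 1501 lower (12%) with it. The share of higher calls among all calls thus fell from 67.2% to 41.3% for lncRNAs when M0471 was left out, and from 59.9% to 52.5% for mRNAs. Under other scalings the higher share of mRNA calls without M0471 ran from 30.7% (no normalization) to 79.8% (each array scaled to its 75th percentile), so the balance of directions changes with the scaling, and differences below are relative to the main one. A probe could also be tested because of 1 pool alone. With only probes well above background on every array of both pools, 2261 lncRNA probes were higher and 2499 lower of 8583 without M0471, and the median difference of lncRNA probes turned from -0.13 to 0.12. A total of 5082 mRNA-category probes were called in both fits, 2922 higher, 2160 lower and 0 in opposite directions, which is 88.1% of the calls with and 84.2% of the calls without M0471. For lncRNAs 3574 probes were called in both, 78% and 61.6% of the respective calls. The 3 high-pool values lay above all 3 low-pool values for 35% of mRNA and 25.2% of lncRNA probes, and below all of them for 22.7% and 11.7%.

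The named probes of both directions were chosen for pools that do not overlap and for calls in both fits, so their separation and the place of M0471 among them are no findings. Among those lowest in the high pool, COX17, a copper chaperone for cytochrome c oxidase (probe in several blocks within chr3:119394045-119396074, GRCh37, minus strand), read 11.32, 11.26 and 11.41 on the high-pool arrays and 14.36, 14.74 and 14.47 on the low-pool arrays (log2 normalized signal). The difference was -3.22 ± 0.12 (SE; adjusted p = 1.9e-11, limma) without M0471 and -3.19 with it, a 9.32-fold lower share. UQCR10, a small subunit of respiratory complex III (chr22:30165937-30165996), read 8.07, 8.30 and 8.23 in the high pool and 11.03, 11.48 and 10.96 in the low pool, a difference of -3.11 ± 0.15. MYEOV2, now COPS9, a small subunit of the COP9 signalosome (chr2:241070297-241070356), read 12.29, 12.44 and 12.44 against 15.41, 15.78 and 15.45. Its difference was -3.21. MT1X, a metallothionein that binds zinc and copper (chr16:56717962-56718021), read 9.26, 9.26 and 9.07 in the high pool and 12.04, 12.30 and 12.04 in the low pool, and was 8.03-fold lower (-3.01 ± 0.13). A probe for ENST00000379816, annotated as a pseudogene of metallothionein 1C (chr16:56682743-56682802), had the most negative difference of the named mRNA-category probes without M0471, at -3.30 ± 0.27, with high-pool values of 8.28, 8.69 and 8.13 and low-pool values of 11.07, 12.15 and 10.91. CCDC72 (now TMA7, -3.05), CCDC56 (now COA3, an assembly factor of cytochrome c oxidase, -3.01), the thymosins TMSB15B and TMSB15A, which bind actin monomers (both -3.02), and C9orf16 (now BBLN, -2.99) were also among the 12. The probe of ITGAE, the integrin αE chain (chr17:3623609-3623668), read 9.05, 9.19 and 9.26 against 12.12, 12.71 and 12.63 (-3.28 ± 0.17), and TP53TG1 is a non-coding gene (-3.03).

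Among the genes highest in the high pool, LMNA, which encodes the nuclear lamins A and C (chr1:156107471-156107530), read 17.90, 17.60 and 17.85 in the high pool and 15.18, 14.77 and 15.31 in the low pool, a difference of 2.82 ± 0.14 (adjusted p = 8.45e-11, limma) without M0471 and 2.70 with it. The most positive value was that of MAGED2, a member of the MAGE family, at 15.54, 15.16 and 15.41 against 12.64, 12.23 and 12.47, or 7.67-fold higher (2.94 ± 0.19). SSB, the La protein that binds the ends of RNA polymerase III transcripts (chr2:170668314-170668373), read 14.93, 14.83 and 14.83 against 12.21, 11.96 and 12.16 (2.78 ± 0.14). GOT2, mitochondrial aspartate aminotransferase (chr16:58741037-58741096), read 16.77, 16.37 and 16.63 against 14.00, 13.66 and 13.96 (2.77). VCP, the ATPase that extracts ubiquitylated proteins (chr9:35056967-35057026), read 17.31, 16.83 and 17.37 against 14.81, 14.24 and 14.70 (2.65). MAGED1 (2.74), the kinase DAPK3 (2.73), the actin regulator CAP1 (2.73), RRAGA, a GTPase of amino acid signalling to mTOR (2.64), the importin KPNA2 (2.63) and ornithine aminotransferase OAT (2.63) followed. The probe labelled HSP90AA2 (2.77) lies in a near-identical copy of HSP90AA1, and its signal cannot be assigned to one of them.

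**Figure D1:**
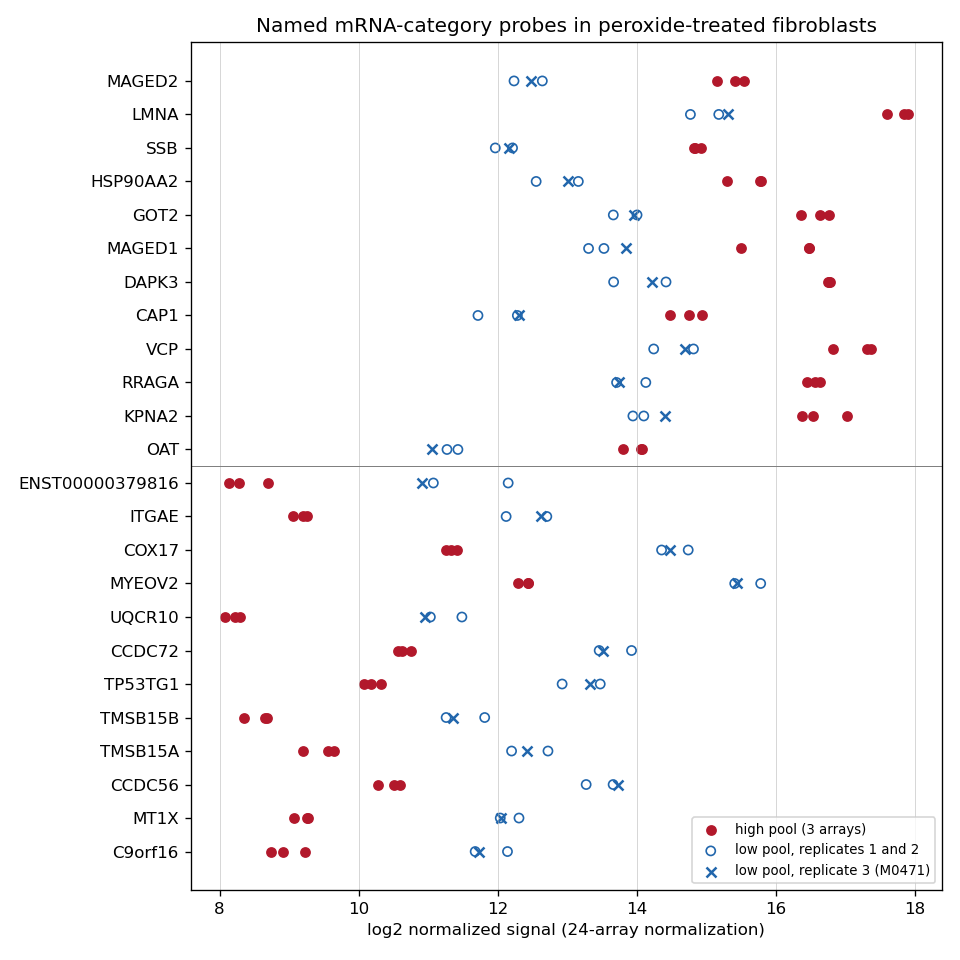
Log2 normalized signal (x axis, 24-array normalization) of the 24 named mRNA-category genes (y axis) on each OS array, with filled points for the 3 high-pool arrays, open points for low-pool replicates 1 and 2 and crosses for low-pool replicate 3 (M0471). The genes were chosen so that the 3 high-pool values lie on one side of the 3 low-pool values in every row, as for COX17 at 11.26 to 11.41 against 14.36 to 14.74.

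The position of a probe within its transcript followed the same order. Of the 10904 mRNA-category probes 10469 (96%) had a position in the array files, counted in bases from the 5′ end of the transcript. Such a position is a lower bound of transcript length. How far the probes lie from the 3′ end, where labelling from an oligo-dT primer begins, was not analysed here. For the 1260 probes at bases 1 to 500 the median difference was -0.66 without M0471 and -0.60 with it. It was -0.38 at 501 to 1000, -0.15 at 1001 to 1500, 0.06 at 1501 to 2000, 0.22 at 2001 to 3000, 0.47 at 3001 to 4000, 0.58 at 4001 to 6000 and 0.63 for the 625 probes beyond 6000 bases (without M0471). In the first class 7.54% of probes were higher and 46.6% lower, and in the last 50.4% were higher and 4.64% lower. Beyond 6000 bases the median within replicates 1, 2 and 3 was 0.73, 0.43 and 1.74, so the pair holding M0471 stood far above the others. That pair did not do so in the first class (-0.68, -0.56 and -0.54). Spearman's rho of position and difference across probes, which are not independent replicates, was 0.410, 0.333 and 0.358 in the OS replicates and 0.408, 0.388 and 0.349 in control cells. The means of 0.367 ± 0.0390 (SD, n = 3) for OS and 0.382 ± 0.0303 (SD, n = 3) for control cells gave p = 0.8 in an exact permutation test (two-sided, smallest possible p 0.1), and without M0471 the OS mean was 0.372 ± 0.0540 (n = 2; exact permutation p = 0.8).

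**Figure D2:**
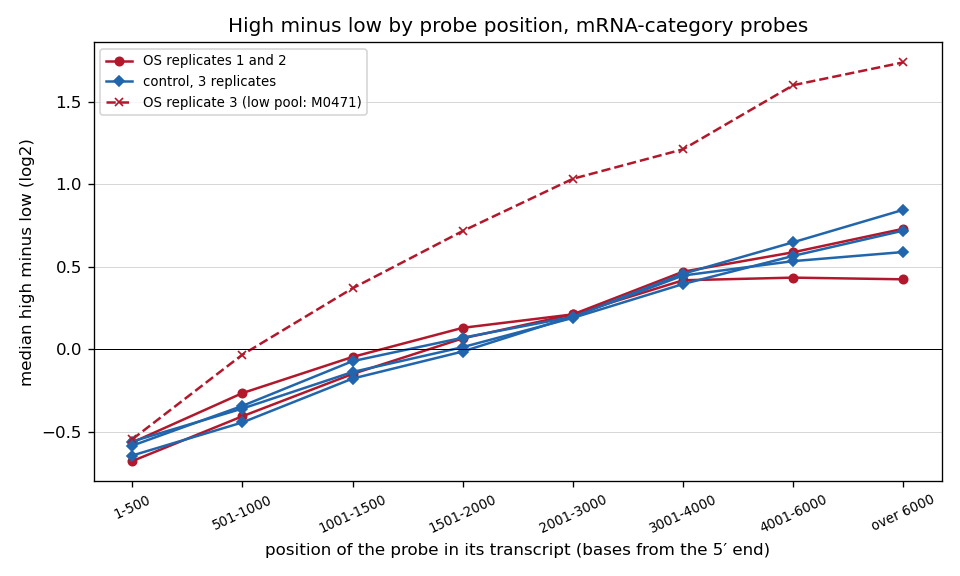
Median high minus low difference (y axis, log2) of mRNA-category probes in 8 classes of probe position (x axis, bases from the 5′ end), one line per replicate number, red for OS (the dashed line with crosses is the pair that holds M0471) and blue for control cells. All lines climb from about -0.6 in the first class, and the dashed line leaves the others in the later classes, ending at 1.74 against 0.73 and 0.43.

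Counts for gene lists depend on the scaling, since scaling each array to its 75th percentile with M0471 included raised the median of all mRNA-category probes to 1.29 and turned most lower calls into none or into higher ones. Under the main scaling ribosomal protein messages were mostly lower in the high pool. Among 77 tested probes for cytosolic ribosomal proteins, 62 were lower and 3 higher in the high pool without M0471 (60 and 3 with it), with a median difference of -0.98 (-0.91) against 0.01 (0.29) over all mRNA-category probes. At the 75th percentile the list had 5 higher and 34 lower without M0471 (median -0.51) and 10 higher and 1 lower with it (median 0.45). RPL39, one of the smallest ribosomal proteins, read 11.42, 11.61 and 11.42 in the high pool and 13.80, 14.12 and 14.16 in the low pool (-2.48), and RPS29 read 7.65, 7.45 and 7.82 against 9.85, 10.11 and 9.44 (-2.40). The 3 higher probes were those of RPL5 (0.51, another RPL5 probe being at -0.07), RPL4 (0.45) and RPL14 (0.31). RPL3 was not called at either of its probes (both 0.19). Of 52 probes for translation initiation and elongation factors and genes named after them (kinases and methyltransferases such as EIF2AK4, EEF2K and FAM86A among them), 15 were higher and 22 lower (16 and 19 of 51 with M0471), with a median of -0.25, beside 29% higher and 26.2% lower over all mRNA-category probes. At the 75th percentile 19 were higher and 7 lower, and 28 and 0 with M0471. EIF4A3, an RNA helicase of the exon junction complex, read 15.36, 15.27 and 15.46 against 13.79, 13.15 and 13.36 (1.89), and EIF3B, a scaffold subunit of eIF3, was 1.80 higher. EIF1B, a small factor of start codon selection, was lower (-2.23). EIF4E, the cap-binding protein, read 8.06, 8.52 and 8.58 against 9.84, 10.27 and 8.93, the last being M0471, so its difference was -1.71 without and -1.29 with that array, and its sign turned when all 24 arrays were scaled to their 75th percentile (0.045).

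Under the main scaling mitochondrial genes were more often lower than higher. For 45 probes of mitochondrial ribosomal proteins 24 were lower and 11 higher (median -0.54; 24 and 9 with M0471, median -0.69), from MRPS33 (-2.11) and MRPL42 (-1.81) to MRPL39 (1.51) and MRPS31 (1.60). For 57 probes of nuclear-encoded respiratory chain subunits 36 were lower and 9 higher (median -1.07; 35 and 10 with M0471). At the 75th percentile these lists had 13 higher and 13 lower, and 14 and 28, without M0471, and 18 and 0 (median 0.84), and 17 and 2 (median 0.24), with it. Small accessory subunits such as UQCR11 (-2.66) were at one end. The large catalytic subunits of ATP synthase were at the other, with ATP5B (now ATP5F1B) at 16.32, 16.02 and 16.16 in the high pool and 13.77, 13.52 and 13.73 in the low pool (2.53) and ATP5A1 (now ATP5F1A) at 2.29.

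Proteasome, chaperone and glycolytic messages were mostly higher in the high pool. Of 20 proteasome probes 17 were higher and 0 lower in both fits (median 1.01), led by PSMD4, a ubiquitin receptor (2.02), and the ATPase PSMC2 (1.94). Of 23 probes of heat shock proteins and chaperones 18 were higher and 2 lower (median 1.54; 19 and 3 with M0471). HSP90AA1, the stress-inducible HSP90, read 18.11, 17.82 and 18.08 against 15.64, 15.29 and 15.60 (2.56), and DNAJA1, an HSP40 cochaperone, was 2.38 higher. The exceptions were 2 small chaperones, CRYAB (-1.38) and HSPE1, the HSP10 of mitochondria (-0.91), both of which turned in sign under 75th-percentile scaling with M0471 included. Of 7 probes of glycolytic genes 6 were higher without M0471 and all 7 with it (median 1.53), with ENO1 at 2.46 and PFKP at 2.31. In control cells the medians of the proteasome, chaperone and glycolytic lists were 1.19, 1.91 and 2.07.

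Genes that answer oxidative damage were divided. Over all mRNA-category probes 29% were higher and 26.2% lower. Among 12 probes of antioxidant enzymes and NRF2 targets 6 were higher (50%) and 2 lower (16.7%), with a median of 0.62. The lower calls were both probes of GPX1, a small selenoprotein that reduces peroxides, which read 14.33, 14.36 and 14.51 against 16.94, 17.01 and 17.14 at its stronger probe (-2.59; the other was -1.63). SOD1 (-0.19) and TKT (1.11, adjusted p = 0.71, limma) did not pass the test. Of 9 probes of metallothioneins and ferritins, which hold metal ions, 6 were lower and 1 higher (median -2.03; 6 and 0 at the 75th percentile without M0471, 1 and 1 of 8 with it), MT1E at -2.44 following MT1X. The exception was 1 probe of the ferritin heavy chain FTH1 (0.47), another FTH1 probe being at -0.63.

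Immediate early and stress-induced factors were more often higher than lower in the high pool. Their list holds transcription factors and also others, such as the secreted CTGF and the RNA decay factor ZFP36. Of 30 probes of immediate early and stress-induced factors 14 were higher and 6 lower without M0471 (16 and 4 with it), with a median of 0.55 (0.75), while the same probes had a median of -0.10 in control cells. By probe, the difference from control cells passed the interaction test at 3 of them, ZFP36 and a pair of ZFP36L1 probes described below. A gap between OS and control medians was not particular to this list. Without M0471 the ZNF list had 0.15 and -0.20, and glycolysis 1.53 and 2.07. IER5, an immediate early regulator, read 17.13, 16.52 and 16.73 against 14.53, 14.17 and 14.14 (2.46 ± 0.17). CTGF (now CCN2), a secreted matricellular factor, read 14.55, 13.38 and 14.31 against 11.95, 11.69 and 12.04 (2.27 ± 0.24), EGR1 was at 1.41 and JUNB at 1.56. The helix-loop-helix inhibitors ID3 (-1.70) and ID1 (-1.26), both short proteins, were lower, and both turned in sign under 75th-percentile scaling with M0471 included. ATF3, a stress-induced partner of ATF4, had 4 probes that disagreed, from -0.62 to 0.64. The brightest (chr1:212793856-212793915) read 17.06, 17.37 and 17.13 in the high pool and 16.83, 16.27 and 16.16 in the low pool, and was higher by 0.64 (adjusted p = 0.038, limma; 0.77 with M0471), while the other 3 were not called. Of 12 probes for messages with regulatory upstream reading frames and for ATF4 targets 5 were higher (41.7%) and 3 lower (25%). Over all mRNA-category probes the shares were 29% and 26.2%. The list median was 0.14 without and 0.48 with M0471. ASNS, asparagine synthetase, read 16.79, 16.31 and 16.55 against 14.62, 14.28 and 14.74 (2.11), the amino acid transporter subunit SLC3A2 was 1.11 higher, and NUPR1, a small stress-induced chromatin protein, was lower (-2.38).

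Among structural and nuclear genes, those of histones read low in the high pool under the main scaling. Per the study's methods RNA was labelled from an oligo-dT primer, so these probes read only the histone RNA that this primer copied. Of 31 histone probes 27 were lower and 0 higher in both fits (median -1.76), HIST1H2BM reading 10.25, 10.42 and 10.43 against 12.79, 13.19 and 13.07 (-2.63) and HIST1H2BJ lying at -2.38. At the 75th percentile 23 were lower and 1 higher without M0471, but 0 lower and 1 higher with it (median -0.01). The linker histone H1F0 (0.04) and H1FNT (0.11) were among the 4 not called. Large cytoskeletal proteins and motors (myosins, dyneins, kinesins, filamins and linkers) had 24 of 44 probes higher and 2 lower (median 0.76). The mitotic kinesins KIF23 (1.96) and KIF4A (1.83) were at the top. KIF3C (-0.79) was lower, with a turned sign under 75th-percentile scaling with M0471 included, and TLN1 was lower without M0471 (-0.78) and not called with it (0.12). Small cytoskeletal and actin-binding proteins had 7 of 35 higher and 17 lower (median -0.68; 9 and 8 at the 75th percentile without M0471, 10 and 0 with it), from DYNLT3 (-2.29) and S100A13 (-2.13) to CNN1 (1.15) and ARPC1B (1.16). For collagens and large matrix proteins 20 of 45 were higher (44.4%) and 6 lower (13.3%), with a median of 0.46. Over all mRNA-category probes these shares were 29% and 26.2%. COL6A1, a chain of the microfibrillar collagen VI, read 16.85, 15.39 and 16.68 against 14.49, 14.11 and 14.32 (2.02), and the proteoglycan LUM was 1.69 higher. A COL16A1 probe lay at -1.93 while another lay at 0.84, and a LAMA4 probe lay at -2.27.

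Of the remaining lists, ZNF factors and solute carriers had medians near that of all mRNA-category probes without M0471 (0.01), and chromatin modifiers lay above it. Over all these probes 29% were higher and 26.2% lower. Chromatin modifiers had 16 of 39 probes higher and 0 lower (median 0.61; 20 and 0 with M0471), with TET1 (-0.14) and MLL4 (-0.41) not called. Zinc finger (ZNF) transcription factors had 71 of 329 higher (21.6%) and 56 lower (17%, median 0.15), but 98 and 37 with M0471 (median 0.51). ZNF264 was 1.83 and ZNF805 1.96 higher, ZNF525 was lower (-2.38), and ZNF44 read 5.72, 6.46 and 6.54 in the high pool and 7.91, 8.44 and 4.94 in the low pool, so that its difference of -1.99 without M0471 became -0.86, not called, with it. Solute carriers had 53 of 168 higher (31.5%) and 34 lower (20.2%), with a median of 0.15. Their counts with M0471 were 60 and 22. The lactate carriers SLC16A1 (1.47) and SLC16A3 (1.44) led this list. Cytokines, chemokines and growth factors had 2 of 18 higher, CXCL5 (1.68) and HGF (0.90), and 7 lower (median -0.27), FGF7 at -1.62 (turned in sign under 75th-percentile scaling with M0471 included) and CXCL2 at -1.36. Far from the median of all probes were host genes of small nucleolar RNAs and nuclear lncRNAs on catalog probes. They had 14 of 18 lower and 0 higher (median -2.08). At the 75th percentile 12 were lower and 2 higher without M0471, and 1 and 2 with it. SNHG9 read 11.82, 11.93 and 11.90 against 14.75, 14.88 and 14.79 (-2.94), C7orf40 (now SNHG15) lay at -2.89, and TUG1 (0.06) was not called. LOC644656, a non-coding gene (NR_036539, chr11:9481121-9481180), read 6.93, 6.77 and 7.00 against 8.40, 8.60 and 7.94 and was lower by 1.65 on the log2 scale (-1.65; adjusted p = 0.000242, limma), or -1.42 with M0471. The MALAT1 probe was not called (-0.45, adjusted p = 0.664, limma). Less the median of all mRNA-category probes, which the scalings moved from -0.78 to 1.29, list medians kept their sign over every scaling tried, with and without M0471, except that of the cytokines (-0.29 to 0.18). The medians nearest to 0 were those of the ATF4 list (0.01 to 0.75), the ZNF list (0.05 to 0.31) and the translation factors (-0.68 to -0.03).

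**Figure D3:**
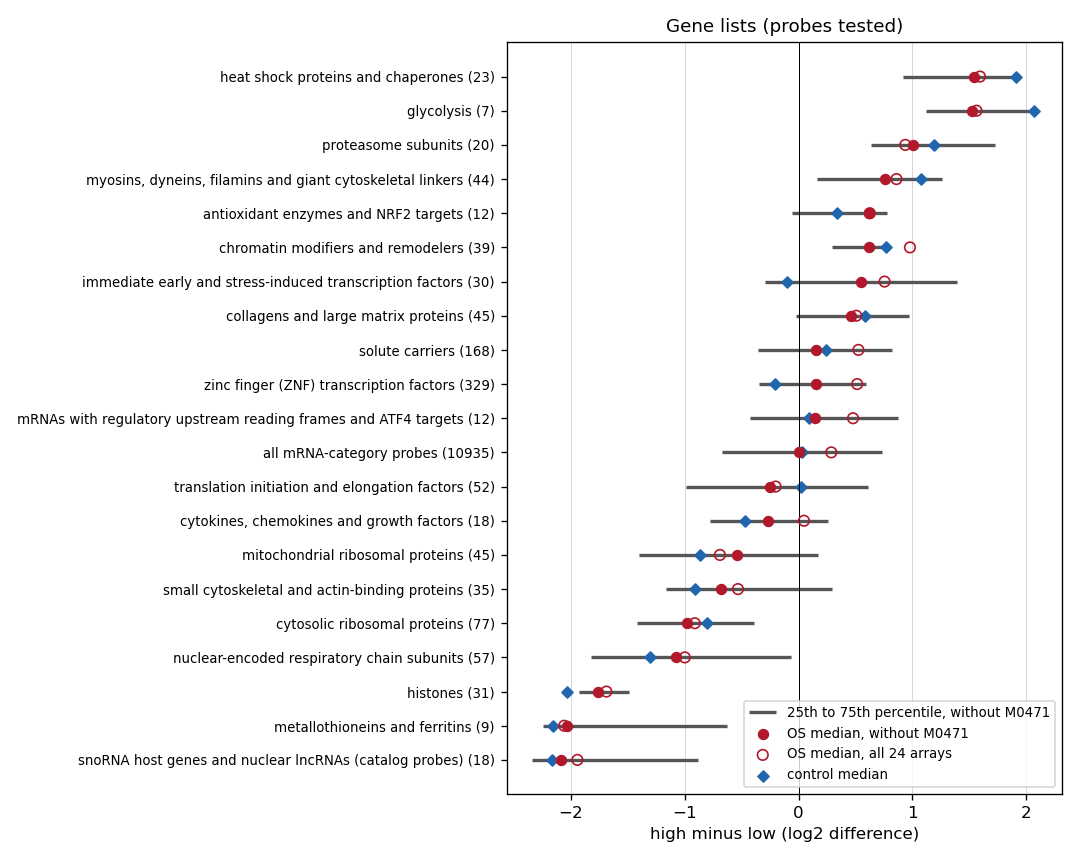
Median high minus low difference (x axis, log2) of the 20 gene lists (y axis, with the number of probes tested), as filled red points without M0471 and open red points with all 24 arrays, blue diamonds for control cells, and grey bars for the 25th to 75th percentile of members without M0471. Histones (-1.76), metallothioneins and ferritins (-2.03) and snoRNA hosts (-2.08) lie farthest left and heat shock proteins (1.54) and glycolysis (1.53) farthest right. For immediate early factors the OS median of 0.55 lies apart from the control median of -0.10. Other lists also lie apart from control, such as glycolysis (1.53 and 2.07) and ZNF factors (0.15 and -0.20).

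The categories were normalized separately, so the size of a difference on a lncRNA probe cannot be set beside that on an mRNA-category probe. The array files give these probes no position in the genome. ENST00000598846.1 read 15.45, 15.41 and 15.28 in the high pool and 12.24, 11.91 and 12.10 in the low pool, a difference of 3.33 ± 0.14 (adjusted p = 2.73e-11, limma) without M0471 and 3.30 with it, or 2.14 when both categories were normalized together with all 24 arrays. ENST00000515055.1 (3.31), ENST00000445430.1 (3.26), ENST00000414625.2 (3.24) and ENST00000595265.1 (3.24) followed. Most of these probes contain sequence that a catalog probe for a protein-coding gene also contains, and the runs are shown because such a probe can bind that gene's mRNA as well. The shared run of ENST00000515055.1 with a KPNA6 probe (chr1:32642036-32642095, GRCh37) covered all 60 bases, of which the first 30 are printed, that of ENST00000595265.1 with a GNB4 probe (chr3:179113929-179113988) 33 bases, of which 30 are printed, and that of ENST00000445430.1, ENST00000414625.2 and ENST00000601648.1 with an SDHA probe (chr5:256725-256784) 28 bases.
ENST00000515055.1 and KPNA6: gcattgagtgtgctgagtccagacaaatgt
ENST00000595265.1 and GNB4: cacagtgattcattcctctatttgtacagt
ENST00000445430.1, ENST00000414625.2, ENST00000601648.1 and SDHA: ttgtgacaagataaaactgggcacagct

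The catalog probes with these runs were higher too, KPNA6, an importin α, by 1.84, the G protein subunit GNB4 by 1.64 and SDHA, the flavoprotein of succinate dehydrogenase, by 1.79. The probe of ENST00000515055.1 and that of KPNA6 have the same 60 bases, yet differed by 3.31 and 1.84 between the pools under separate normalization. With the categories normalized together and without M0471 they differed by 2.14 and 2.16, ENST00000595265.1 and GNB4 by 2.11 and 1.92, and ENST00000445430.1 and SDHA by 2.12 and 2.07. The larger values of these lncRNA probes thus come with the separate normalization. Over the array 1479 lncRNA probes shared a run of at least 25 bases with a catalog probe. For the 549 pairs tested on both sides the differences correlated across probes (Spearman's rho 0.919). The 607 sharing probes tested had 21.4% higher and 33.4% lower calls with a median of -0.25, against 18.9%, 26.7% and -0.12 for the 11981 without a shared run. With M0471 the medians were 0.34 and 0.38. Among lower lncRNAs, ENST00000568608.1 read 12.54, 12.32 and 12.38 against 14.77, 14.93 and 14.39 (-2.45 ± 0.13; -2.29 with M0471, and -2.91 with M0471 and both categories together), and ENST00000518073.1 (-2.37), ENST00000571138.1 (-2.30) and ENST00000519852.1 (-2.25) were like it. ENST00000513179.1 read 6.74, 7.13 and 7.19 against 9.04, 9.59 and 7.42, so its difference was -2.36 without M0471 and -1.66 with it. Of 5299 lncRNAs with a pair of probes tested, both were higher for 813, both lower for 1333 and the calls opposed for 8, without M0471. The probes of a pair can overlap, as those of ENST00000515055.1 share 60 and 59 bases with the same KPNA6 probe. Such pairs are not separate measurements, and how many overlap was not counted.

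Among the probes tested, lncRNA probes lay below mRNA probes in this difference in all 3 replicates. With both categories normalized together, the median difference of lncRNA probes less that of mRNA probes was -0.68, -0.72 and -0.17 in OS replicates 1, 2 and 3 and -0.62, -0.55 and -0.71 in control cells. The third OS pair, which holds M0471, lay closest to 0. The means of -0.52 ± 0.306 (SD, n = 3) and -0.63 ± 0.0799 (SD, n = 3) gave p = 0.9 in an exact permutation test (two-sided, smallest possible p 0.1). Without M0471 the OS mean was -0.71 ± 0.0305 (n = 2) against -0.64 ± 0.0841 (exact permutation p = 0.3). Probes above background in 1 pool alone are among those compared here. With both pools required and the categories normalized separately, medians without M0471 moved from -0.13 to 0.12 for lncRNA probes and from 0.01 to 0.06 for mRNA probes. The gap on 1 scale was not computed under that filter, so the order of the categories is given for the main filter only.

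Transcripts that were higher in total RNA upon OS were more often lower than higher in the high pool, and those that were lower in total RNA the other way round. In total RNA without M0471, 603 mRNA-category probes (5.67% of 10630) were higher and 820 (7.71%) lower in OS than in control cells, and 1302 (11.1%) and 938 (7.99%) of 11736 lncRNA probes. With all 24 arrays the shares were 3.07% and 3.06% for mRNAs and 6.18% and 3.45% for lncRNAs. Of the 522 raised mRNA-category probes tested between the pools 12.5% were higher and 45% lower in the high pool (median -0.55), against 29.8% and 27% of 8980 probes not called in total RNA (median 0.04). Of 714 probes reduced in total RNA 50.7% were higher and 17.8% lower (median 0.44). The same probes had medians of -0.59 (raised) and 0.38 (reduced) in control cells. For lncRNAs 5.79% of 1002 raised probes were higher and 48.9% lower (median -0.78), and 43.7% of 647 reduced probes were higher (median 0.35), against medians of -1.10 and 0.16 in control cells. With M0471 the raised lncRNA probes had a median of -0.23 and those not called 0.53.

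How many probes had a high minus low difference that differed between OS and control cells depended on the setting. In a test of the difference itself (the interaction of treatment and pool, limma), 29 of 11057 mRNA-category probes (0.262%) had a more positive and 103 (0.932%) a more negative difference upon OS without M0471, and 15 (0.136%) and 68 (0.616%) of 11034 with it. For lncRNAs the counts were 29 (0.225%) and 19 (0.147%) of 12901 without M0471 and 13 (0.101%) and 4 (0.0312%) of 12829 with it. With each array scaled to its 75th percentile they fell to 6 and 9 for mRNAs without M0471 and to 0 and 0 with it, and with array weights they rose to 155 and 310 without M0471 and to 431 and 595 with it.

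Transcripts that moved toward the high pool upon OS were led by FAM58BP, a cyclin-like pseudogene copy (chr1:200183583-200183642) that cannot be told from its parent gene's message with certainty. It read 12.41, 11.99 and 12.29 in the high pool and 12.13, 11.98 and 12.32 in the low pool of OS cells, and 8.76, 9.01 and 8.96 against 11.07, 11.11 and 11.33 in control cells. The pools overlapped in OS cells (0.18) and were far apart in control cells (-2.30), an interaction of 2.48. ZFP36 (tristetraprolin), which speeds the decay of messages with AU-rich elements (chr19:39899758-39899817), read 14.38, 13.65 and 14.36 against 12.88, 12.75 and 12.54 in OS cells, and 12.30, 12.02 and 11.81 against 12.77, 12.48 and 12.40 in control cells. Its difference was 1.32 upon OS and -0.50 in control cells, and the interaction was 1.82 ± 0.27 (adjusted p = 0.00303, limma) without M0471 and 1.91 (adjusted p = 0.00677) with it. Its relative ZFP36L1 had 2 probes called, with interactions of 0.91 and 0.89. VAMP8, a SNARE of endosomal fusion, lay in the low pool in both conditions, less so upon OS (-0.84 against -2.43, interaction 1.59). SDHA read 13.67, 13.26 and 13.73 against 11.86, 11.68 and 11.85 upon OS and 12.81, 12.66 and 12.56 against 12.01, 12.14 and 12.11 in control cells (interaction 1.20 ± 0.18). All 3 SDHA probes were called without M0471 (0.94 to 1.20), and the lncRNA probes ENST00000601648.1 (1.54) and ENST00000445430.1 (1.49) carry the SDHA run printed above, on the scale of their own category. ATF4, whose translation is controlled by upstream reading frames, read 17.37, 17.03 and 17.42 in the high pool and 17.57, 17.48 and 17.46 in the low pool of OS cells, and 15.63, 15.52 and 15.58 against 16.78, 16.49 and 16.72 in control cells. ATF4 was thus not called between the pools upon OS (-0.25), lay lower in the high pool in control cells (-1.09), and had an interaction of 0.84 (adjusted p = 0.022, limma).

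Those that moved toward the low pool upon OS included 5 of 52 probes of the translation factor list and 4 of 77 of cytosolic ribosomal proteins without M0471. Over all mRNA-category probes tested 0.932% had a more negative interaction. EEF1A1, the elongation factor that brings aminoacyl-tRNA to the ribosome (chr6:74228680-74228739, minus strand), read 16.33, 15.77 and 15.54 in the high pool and 15.92, 15.88 and 15.72 in the low pool of OS cells, which overlap. In control cells it read 17.40, 17.14 and 17.06 against 15.88, 15.40 and 15.60. The interaction was -1.59 ± 0.25 (adjusted p = 0.00391, limma) without M0471 and -1.53 with it. Over 3 EEF1A1 probes it ranged from -1.59 to -0.48, and only the probe given here was called. EIF3C, a core subunit of eIF3, had a difference of 1.10 upon OS and 2.47 in control cells (interaction -1.37). Probes of EIF4B (-0.92), the eIF2α kinase gene EIF2AK4 (-0.82) and EEF1D (-0.79) were called too, while another EIF4B probe (-0.77) was not. Of the ribosomal proteins RPL13A was called at 2 probes (-0.85 and -0.93) and RPL3 at 2 (-0.66 and -0.60), RPL3 without M0471 only. Outside translation, the chaperonin subunit CCT8 (-1.02), the proteasome subunit PSMD2 (-0.88), malic enzyme ME1 (-0.96) and MYO10 (-1.06) were called among the list members in both fits, and MLL2 (now KMT2D, -1.04) without M0471 only. Of the ZNF list, ZNF7 (0.77) was called in the other direction in both fits, and ZNF555 (0.75), ZNF845 (0.93) and ZNF133 (0.90) without M0471 only. These list members, with ZFP36L1 and ATF4, were named after their values were seen. The strongest by size beside EEF1A1 were LOC338620 (-1.82), LOC285178 (-1.66) and FYCO1 (-1.45), an adaptor of autophagosome transport, with the lncRNAs ENST00000593427.1 (-1.45) and ENST00000441167.1 (-1.21). LOC338620 read 10.33, 9.98 and 10.24 against 10.64, 10.38 and 9.70 upon OS and 10.44, 10.45 and 9.90 against 8.81, 8.86 and 8.73 in control cells. FYCO1 was higher in the high pool in both conditions, by 1.16 upon OS and 2.61 in control cells.

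**Figure D4:**
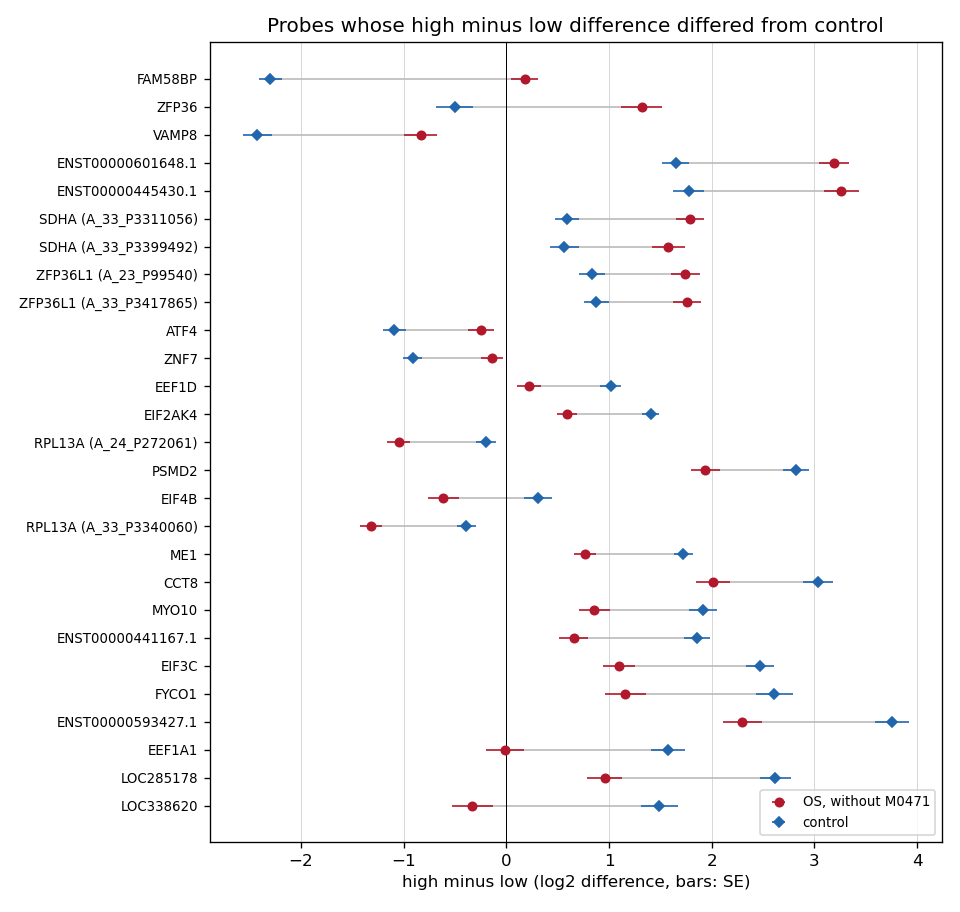
High minus low difference (x axis, log2, bars show SE) of probes (y axis) called in the interaction test in both fits. Red points show OS (without M0471) and blue diamonds control cells. The rows are the 12 probes named by size and, beside them, every gene list member called in both fits. FAM58BP and EEF1A1 lie near 0 upon OS (0.18 and -0.01) and at -2.30 and 1.58 in control cells, and ZFP36 lies on opposite sides of 0 (1.32 and -0.50).

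The first bases of these messages are shown because genes of the translation machinery are known for a 5′ terminal oligopyrimidine tract, a C at the start site followed by pyrimidines. Each line holds the 10 bases before and the 20 bases from the annotated RefSeq start (GRCh38.p14), 5′ to 3′ on the strand of the gene, and capitals mark a C at the annotated start followed by at least 4 bases that are C or T. RPS12 is shown as a ribosomal protein message with the tract and no called interaction (-0.45), and the sequences are from RPL13A (chr19:49487598-49487627, plus strand), EEF1A1 (chr6:73521013-73521042, minus), EIF4B (chr12:53006446-53006475, plus), RPS12 (chr6:132814559-132814588, plus), EIF3C (chr16:28688548-28688577, plus), RPL3 (chr22:39319604-39319633, minus) and ZFP36 (chr19:39406837-39406866, plus).
RPL13A: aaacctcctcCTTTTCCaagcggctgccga
EEF1A1: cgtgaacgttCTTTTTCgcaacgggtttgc
EIF4B: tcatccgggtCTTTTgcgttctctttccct
RPS12: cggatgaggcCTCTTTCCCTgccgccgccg
EIF3C: tcccacccccgtggcaggcagccctgcacc
RPL3: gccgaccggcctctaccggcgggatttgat
ZFP36: tgccagcctcagcctgacttcagcgctccc

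The tract as searched (C and then at least 4 of C or T from the annotated first base, on the gene's strand only) was present in 1429 of 35116 RefSeq start windows (4.07%) and in 7.21% of the 6507 tested mRNA-category genes with a window. Of the ribosomal protein genes 31 of 44 held it (70.5%), and of the translation factors 8 of 33 (24.2%). It was held by 12 of 75 genes with a more negative interaction without M0471 (16%) and 1 of 21 with a more positive one (4.76%), and with M0471 by 8 of 47 (17%) and 1 of 10 (10%). Counted over probes, 14 of 564 with the tract (2.48%) and 66 of 7134 without it (0.925%) had a more negative interaction, and with ribosomal proteins left out 12 of 520 did (2.31%). Between the pools of OS cells the tract was held by 6.46% of higher and 8.93% of lower genes, and the median difference of tract probes was -0.06 upon OS and -0.01 in control cells. Annotated starts can lie some bases from the start used in these cells, so a window without the tract says only that these letters do not begin there.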

How the data were processed

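The study's authors copied RNA from an oligo-dT primer and hybridised the Cy3-labelled product to 1-colour Agilent arrays. They deposited Feature Extraction files, whose processed signal is a background-corrected intensity. They also deposited a table of log2 values that matched quantile normalization of all probes together, and their software was Partek. Arrays of the 8 groups lay on 3 slides, 1 array of each group per slide. After removal of 178 probes marked as outliers, 61359 were kept (43911 lncRNA, 17448 mRNA category, 12427 of these with a current RefSeq symbol). The log2 processed signal was quantile-normalized within each category and fitted with limma 3.58.1 (R 4.3.3) by group over 24 arrays, or over 23 renormalized without M0471. Probes entered a test if at least 1 compared group had them well above background on all its arrays, with Benjamini-Hochberg adjustment over both categories and a threshold of 0.05. The interaction was the OS less the control difference. Code was tested on simulated data. Further tools were Python 3.11.15, pandas 2.3.3, numpy 2.4.6 and matplotlib 3.10.9.

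Named probes were well above background on all 6 arrays, called in both fits in 1 direction and not overlapping between pools, taking 1 probe per gene and the 12 most extreme mRNA and 5 most extreme lncRNA probes each way without M0471. For the interaction these were 4 and 2 each way, called in both fits, and for lists 2 members each way. GAPDH, ACTB, FOS, ATF3, NR_036539, MALAT1 and NEAT1 were always looked for, and GAPDH, ACTB, FOS and NEAT1 had 0 catalog probes by that name. Members and lists were chosen with earlier results of these data known. Lists were described by counts and medians, with no set test. Probes of 1 gene are not independent. Per the study's methods each repeat used its own RNA preparation, but no source used here says whether these were separate cultures. The p-values thus measure a spread between preparations, whose number limits the precision. That spread is pooled over all 8 groups, those outside the comparison included. With only the groups compared, 1183 mRNA probes were higher and 1248 lower with M0471, and 3375 and 2946 without it. Probe positions in GRCh37 come from the array files, and exon or UTR placement was not analysed here. Start windows are RefSeq's (GRCh38.p14). The probe's position in its transcript replaced protein length, which was not analysed here; 523 of 764 probe pairs of 1 transcript under 5000 bases apart had a matching spacing within 2 bases. For same-numbered high and low arrays of OS cells, deviations from the group means correlated at 0.0889, 0.0748 and 0.0927 (0.144 for replicates 1 and 2 normalized without M0471), and those of control cells at 0.257, 0.119 and 0.269. The number is also the slide, except in the untranslated pool of control cells. The OS values lie under the minimum of 0.1 set for pairing, so the fits given have no block, and fits with it were made as well. Some members of the lists are not reported here by name.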

Additional observations from a re-analysis of the deposited data

Results flagged for a closer look

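The following probes had a high minus low difference that differed between OS and control cells by the interaction test (limma), and the values are the interactions without M0471 on the log2 scale. More positive upon OS were FAM58BP (2.48), ZFP36 (1.82), VAMP8 (1.59), SDHA (1.20) and the lncRNA probes ENST00000601648.1 (1.54) and ENST00000445430.1 (1.49), both of which share bases with the SDHA probe. More negative were LOC338620 (-1.82), LOC285178 (-1.66), EEF1A1 (-1.59), FYCO1 (-1.45), and the lncRNA probes ENST00000593427.1 (-1.45) and ENST00000441167.1 (-1.21).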

How the results depend on the processing

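Counts are given as higher and lower in the high pool, or as more positive and more negative for the interaction. In OS cells with 24 arrays, 75th-percentile scaling gave 6007 and 221 mRNA probes, no normalization 1420 and 5539 mRNA and 182 and 10138 lncRNA probes, fitting only the groups compared 1183 and 1248 mRNA and 679 and 632 lncRNA probes, and the mean over probes of a gene 1726 and 851 lncRNAs. Higher lncRNA probes numbered 1865 with the categories normalized together, 1889 with normexp and 1863 in the deposited table, and lower ones 3777 with array weights and 3404 without low-pool replicate 3. Without M0471, 75th-percentile scaling gave 5373 and 1358 mRNA probes, no normalization 1952 and 4403 mRNA and 335 and 8311 lncRNA probes, the mean over probes 1339 and 2021 lncRNAs, and higher lncRNA probes numbered 1348 (together), 1416 (normexp) and 1342 (deposited). Interaction counts with 24 arrays were 36 more negative mRNA and 10 lncRNA probes (together), 0 and 0 mRNA and 0 and 1 lncRNA probes (75th percentile), 15 more negative lncRNA probes (normexp), and 431 and 595 mRNA and 372 and 237 lncRNA probes (array weights, which gave M0471 a weight of 0.0194). Without M0471, settings chosen after seeing the data, they were 6 and 9 mRNA and 4 more positive lncRNA probes (75th percentile), 14 and 29 lncRNA probes (normexp), and 155 and 310 mRNA and 122 and 85 lncRNA probes (array weights). The lncRNA less mRNA median under 75th-percentile scaling was -1.25, and OS less control -0.52. The cause was not tested.

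Leaving out 1 array at a time from the 24 gave 2914 to 3961 higher and 2038 to 2867 lower mRNA probes, and 2294 to 4218 and 1200 to 3404 lncRNA probes. From the 23 it gave 2424 to 3068, 2360 to 2814, 1683 to 2395 and 2636 to 3339. For the interaction the ranges were 6 to 29, 24 to 103, 7 to 29 and 2 to 25, and without M0471 13 to 35, 48 to 109, 17 to 34 and 12 to 94. Spearman's rho of probe position ranged from 0.346 to 0.384, the lncRNA less mRNA median from -0.70 to -0.42, and its OS less control value from -0.11 to 0.24.

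The replicate number is also the slide, except in the untranslated pool of control cells. Deviations of each high-pool array from its group mean correlated best with those of the low-pool array of its own number. The signals themselves did not always do so. With the replicate block the OS counts were 3482 and 2323 mRNA and 3324 and 1521 lncRNA probes, without M0471 3173 and 2877, and 2604 and 3514. The interaction under the block had 17 and 52 mRNA and 10 and 3 lncRNA probes, without M0471 29 and 92, and 25 and 19. Under the block FYCO1 lost its interaction call with 24 arrays (-1.28), and no other named call changed. The slide as a block gave 3512 and 2334 mRNA and 3434 and 1550 lncRNA probes.

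Of 1414 refits of 122 named results 1304 kept their direction and side of the threshold, 87 lost the call, 14 gained it and 9 changed sign, each under 75th-percentile scaling with 24 arrays: EIF4E 0.0454, ID3 0.10, ID1 0.48, SLC35A4 0.13, CRYAB 0.37, HSPE1 0.48, KIF3C 0.96, FGF7 0.15 and the interaction of ENST00000441167.1 0.0476. The comparison by protein length was not run. Dim lncRNA probes limit the depth, since 22.6% to 32.4% of them were well above background on the 5 arrays other than M0471.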
